A study of Homo sapiens with 4 samples.

Results

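CXCR4, ACKR3 and CXCL12 encode the receptors and the ligand of one chemokine axis, and their RNA was measured in SKOV3 cells, a cell line established from a human ovarian cancer. The RNA-seq data hold 4 libraries. In 2 of them the cells were grown as 2D cultures on a tissue culture plate (TCP) and placed at day 0, and in the other 2 they were grown as tumor spheroids on a polymer X-coated plate and placed at day 8. The groups thus differ in substrate, in the shape of the culture and in time at once, and the labels give 1 growth protocol, with serum replacement, for all 4 libraries, whereas the methods of the study maintain SKOV3 cells with fetal bovine serum. Effects of these differences cannot be told apart. The labels do not say whether the 2 libraries of a group came from separate cultures, so p-values measure only the spread between these libraries, which may be technical. The 3 genes were taken by symbol from the 19475 symbols of the deposited table, and they had been chosen by their levels on polymer X and TCP in these same libraries. Their own difference between the groups is therefore given as a description, with no test. The symbols cover 11 of the 50078 transcripts listed, and each gene was read from its transcript of highest mean FPKM. CXCR4 and ACKR3 passed the filter on low values (2 or more libraries with an FPKM of 1 or more) through the polymer X libraries alone, and CXCL12 did not pass it.

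CXCL12 is a small secreted chemokine that binds both receptors. CXCR4 is a seven-transmembrane receptor that couples to inhibitory G proteins, guides the migration of leukocytes and stem cells and is also found on many carcinoma cells, while ACKR3 (also named CXCR7) is an atypical receptor that recruits arrestins and takes up and degrades CXCL12 and CXCL11. In tumors, CXCL12 is known mainly as a product of stromal cells, and CXCR4 is known as a gene induced at low oxygen.

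The promoter sequence of CXCR4, whose level differed most between the groups of the 3 genes, is shown with that of CXCL12, which was hardly detected. Both are the 250 bases before a transcription start in RefSeq (build GRCh38.p14), read 5′ to 3′ on the strand of the gene. The CXCR4 sequence is that of its outermost start (chr2:136118150-136118399, minus strand), and the CXCL12 sequence lies at chr10:44385098-44385347, also on the minus strand. No entry for ACKR3 was matched. Capitals mark matches on either strand to the core of the hypoxia-inducible factor (HIF) motif (ACGTG or GCGTG), the core of the NRF1 motif (GCATGCGC), the TATA box (TATAAA) and the STAT motif TTCNNNGAA.
CXCR4: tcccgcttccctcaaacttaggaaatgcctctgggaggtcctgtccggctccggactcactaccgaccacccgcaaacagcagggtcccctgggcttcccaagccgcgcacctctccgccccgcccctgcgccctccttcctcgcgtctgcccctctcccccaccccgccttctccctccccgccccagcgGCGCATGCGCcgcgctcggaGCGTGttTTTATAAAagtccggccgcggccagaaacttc
CXCL12: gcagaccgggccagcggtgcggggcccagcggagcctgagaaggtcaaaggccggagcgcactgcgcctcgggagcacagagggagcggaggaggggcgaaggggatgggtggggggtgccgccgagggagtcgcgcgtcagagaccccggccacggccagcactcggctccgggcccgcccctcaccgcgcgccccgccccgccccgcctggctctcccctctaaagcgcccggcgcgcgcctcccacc
The CXCR4 window held 2 overlapping matches to the NRF1 core, between 59 and 50 bases before the start, and such a match was present in 2.6% of the 35116 promoter windows of this length. It also held GCGTG at 39 to 35 bases before the start, where 43.2% of all windows held either form of the HIF core, and 2 overlapping matches to TATAAA between 32 and 25 bases before it, against 10.7% of all windows. No match to TTCNNNGAA was found in either window, and 6.6% of all windows held one. The CXCL12 window held none of the marked motifs and had a GC content of 78.0%, against 68.0% for CXCR4 and a median of 58% over all windows. GGGCGG, not marked, was found 3 times in each of the 2 windows and in 42.6% of all windows. Windows of further CXCR4 starts are not shown. That at chr2:136117870-136118119 held none of these motifs. That at chr2:136116236-136116485 held GCGTG 2 times on either strand and GGGCGG 1 time, and no match to the NRF1 core, TATAAA or TTCNNNGAA. A match of letters is not a site that was shown to be bound.

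CXCR4 was close to the limit of detection on TCP and was among the abundant transcripts on polymer X. Its FPKM, a tag number corrected for transcript length and library size, was 0.218 and 0.240 in TCP replicates 1 and 2 and 60.8 and 65.5 in polymer X replicates 1 and 2 (NM_003467, hg19 chromosome 2, 136871919 to 136875725, minus strand). Both polymer X libraries lay far above both TCP libraries. The values amount to 14 and 18 tags on TCP and to 4067 and 4451 tags on polymer X. The mean FPKM was 0.229 ± 0.0156 (SD, n = 2) on TCP and 63.2 ± 3.31 (SD, n = 2) on polymer X, a ratio of 276. On the scale of log2(FPKM + 1) the difference was 5.71, with a replicate SD of 0.05, and it was the 3rd largest rise among the 11964 genes that passed the filter. From counting error alone, the 95% exact Poisson interval of the FPKM was 0.119 to 0.366 and 0.142 to 0.379 in the TCP libraries, against 59.0 to 62.7 and 63.6 to 67.5 in the polymer X libraries. In bulk RNA, more expressing cells and more RNA per cell cannot be told apart. Within each library, CXCR4 ranked above 34.7% and 35.2% of all symbols by FPKM on TCP and above 96.4% and 96.9% on polymer X.

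**Figure D1:**
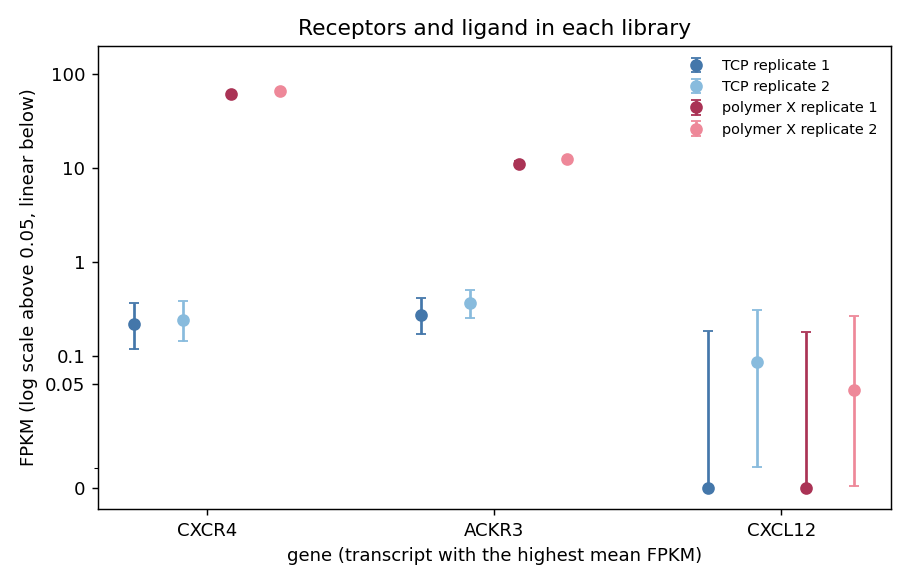
FPKM of CXCR4, ACKR3 and CXCL12 in each library (points, 2 libraries a group), on an axis that is logarithmic above 0.05 and linear below, with 95% exact Poisson intervals of the tags as bars. The polymer X libraries lie at 60.8 and 65.5 for CXCR4 and at 11.1 and 12.5 for ACKR3, above the TCP libraries, whereas all 4 values for CXCL12 lie at or under 0.086.

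The table lists 5 CXCR4 transcripts, which share most of their tags. Their FPKM lay between 50.5 and 60.8 in polymer X replicate 1 and between 54.4 and 65.5 in replicate 2, and between 0.152 and 0.240 on TCP. All 5 thus showed the same wide gap between the groups. They differ in where they begin. The 3 transcripts with the outermost 5′ end (position 136875725: NM_003467, NM_001348056 and NM_001348059) held 4067 to 4070 tags in polymer X replicate 1 and 4451 to 4459 in replicate 2. NM_001348060 (5′ end at 136875216) held 3810 and 4169 tags, and NM_001008540 (5′ end at 136873805) held 3809 and 4168. NM_001008540, which encodes a longer form of the receptor, thus had 258 and 283 fewer tags than NM_003467 although it is 214 bases longer. On TCP the same pair differed by 3 tags and by 1 tag, so that a difference between starts was not detectable there at this depth.

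**Figure D2:**
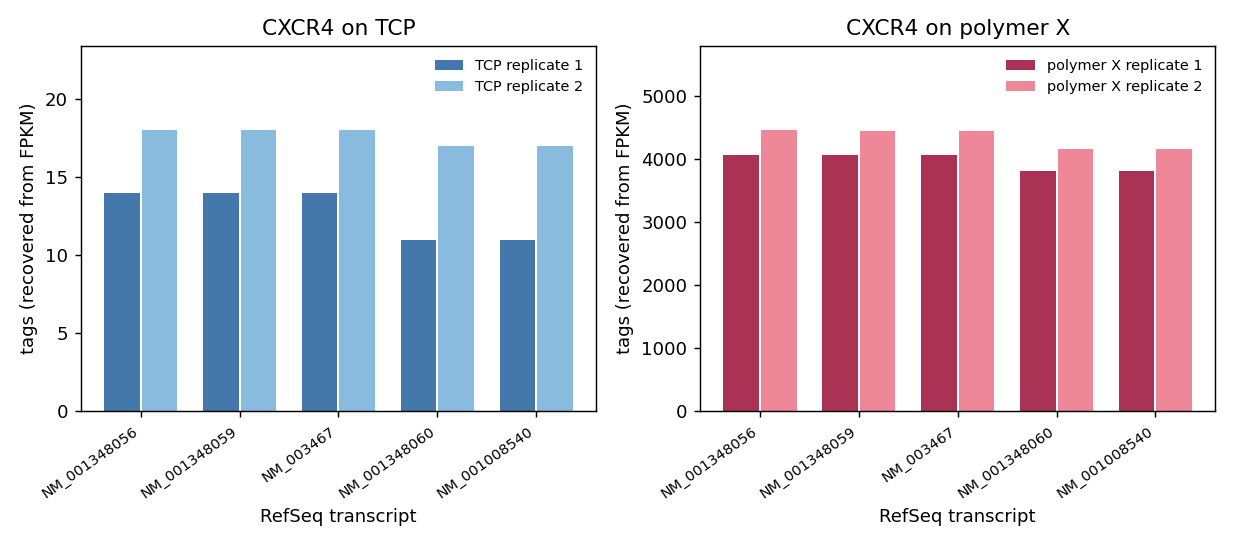
Tags on each of the 5 CXCR4 transcripts on TCP (left) and polymer X (right), with 1 bar a library and both vertical axes starting at 0 but differing in range. The 3 transcripts on the left of each panel share the outermost 5′ end and hold 4067 to 4459 tags on polymer X, more than the 3809 to 4169 of the other 2, and 14 to 18 tags on TCP.

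ACKR3 was also low on TCP and higher on polymer X, with a smaller ratio than CXCR4. Its 1 listed transcript (NM_020311, chromosome 2, 237478380 to 237490994, plus strand) had an FPKM of 0.273 and 0.361 on TCP and of 11.1 and 12.5 on polymer X. These are 22 and 34 tags on TCP and 933 and 1065 tags on polymer X. The mean FPKM was 0.317 ± 0.0622 (SD, n = 2) on TCP and 11.8 ± 0.968 (SD, n = 2) on polymer X, a ratio of 37.2. The difference on the scale of log2(FPKM + 1) was 3.28, with a replicate SD of 0.09, the 46th largest rise of the 11964 tested genes. ACKR3 ranked above 35.8% and 37.3% of all symbols in the TCP libraries and above 74.9% and 78.0% in the polymer X libraries. With both receptors, 2 of the 3 genes lay past a log2 fold change of 1, where 10.7% of the tested genes were called higher on polymer X (adjusted p under 0.05 from limma and a log2 fold change of at least 1). Since the genes were chosen on this contrast, nothing is read from that count.

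CXCL12 was at or near the floor of detection in every library. In the transcript that was kept (NM_001033886, 518 bases, chromosome 10, 44871315 to 44880545, minus strand), the FPKM was 0 in replicate 1 of TCP and of polymer X, 0.086 in TCP replicate 2 and 0.047 in polymer X replicate 2. The latter values stand for 2 tags and 1 tag. All 5 CXCL12 transcripts were at 0 in TCP replicate 1 and in polymer X replicate 1, and none held more than 4 tags in TCP replicate 2 or 2 tags in polymer X replicate 2. A count of 0 allows up to 3 tags, or an FPKM of 0.151 for this transcript in TCP replicate 1 and 0.145 in polymer X replicate 1, taken here as the floor. The upper ends of the 95% exact Poisson intervals of these counts of 0 were higher, at 0.185 and 0.178. No fold change is given, and a difference in CXCL12 between the groups was not detectable at this depth.

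The order of the 2 receptors by FPKM turned between the groups. On TCP, ACKR3 lay above CXCR4 in both libraries, with a ratio of CXCR4 to ACKR3 of 0.799 and 0.665, but their counting intervals overlapped in each library. On polymer X, CXCR4 lay above ACKR3 with ratios of 5.47 and 5.25, and the intervals were far apart. CXCL12 was the lowest of the 3 genes in every library. Tags were counted on exons without regard to strand, but no other symbol of the table overlapped any of the 3 genes. Within 100000 bases lay IQCA1 near ACKR3, C10orf142 near CXCL12 and no symbol near CXCR4.

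The genes most like CXCR4 across the 4 libraries, by Euclidean distance of log2(FPKM + 1), were DEPP1 (0.35), GJB2 (0.715), IFITM1 (0.88), GDF15 (1.17) and WISP2 (1.70). DEPP1, a regulator of autophagy, had an FPKM of 0.266 and 0.260 on TCP and of 55.2 and 52.3 on polymer X. GJB2, the gap junction protein connexin 26, had 0.380 and 0.430 on TCP and 43.5 and 47.4 on polymer X. IFITM1, whose value is uncertain because it shares sequence with its paralogs, encodes an interferon-induced membrane protein, and GDF15 and WISP2 encode secreted proteins. For ACKR3, 4 of the 5 nearest genes were ITGAX (0.22), COL23A1 (0.28), PDK4 (0.29) and ISG20 (0.35). Those encode integrin alpha X, a transmembrane collagen, a kinase of pyruvate dehydrogenase and an interferon-stimulated exonuclease. ITGAX had 0.159 and 0.255 FPKM on TCP and 10.2 and 13.1 on polymer X. With 4 libraries in 2 groups, such likeness describes little more than a low level in one group and a given level in the other.

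CXCR4 and ACKR3 were the 2 chemokine receptor genes that reached an FPKM of 1 in both polymer X libraries. Of the 22 other chemokine receptor genes examined, 7 were at 0 in all 4 libraries (among them CCR2, CCR4 and CXCR1, receptors of leukocytes), and 0 passed the filter, so none entered the main test. On TCP, none of the 24 receptor genes reached an FPKM of 1. CXCR5 was the highest of the 22 others there, at 0.317 and 0.302 FPKM (35 and 39 tags). Its span overlaps that of BCL9L on the opposite strand, so some of these tags may belong to BCL9L. The FPKM summed over all 24 was 1.49 and 1.68 on TCP and 74.2 and 81.5 on polymer X. CXCR4 made up 14.7% and 14.3% of that sum on TCP and 82.0% and 80.4% on polymer X, and ACKR3 made up 18.4% and 21.5% and then 15.0% and 15.3%. The next highest receptor on polymer X was CCR10, the receptor of CCL27 and CCL28, at 0.967 and 1.82 FPKM against 0.273 and 0.162 on TCP, named here after its values were seen. Also named after its values were seen, CCR1, a receptor of inflammatory CC chemokines, had 0 tags in both TCP libraries and 45 and 72 tags on polymer X. With no filter on low values, 15 of the 22 were tested and 0 were called by limma, since no log2 fold change reached 1. Of these, 4 had an unadjusted p under 0.05 by limma, and CCR1, CCR10 and CCRL2 had an adjusted p under 0.05. Of the 22, 21 stayed under 1 FPKM in all 4 libraries, where log2(FPKM + 1) cannot differ by 1. Those could not have been called, so nothing is read from the count of 0.

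**Figure D3:**
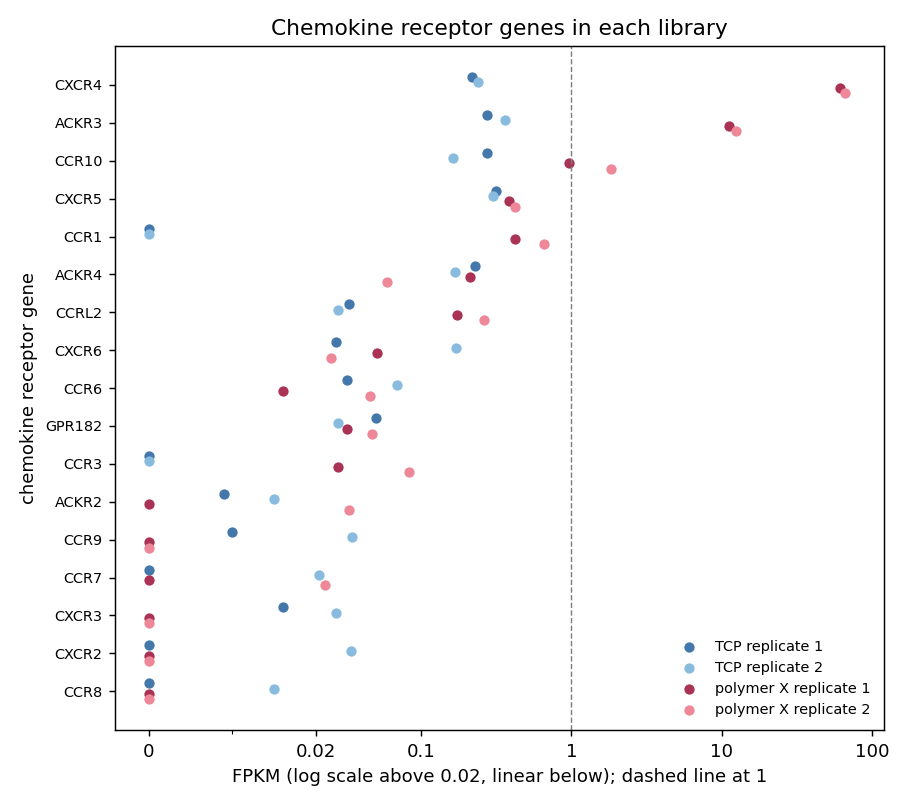
FPKM of the 17 chemokine receptor genes above 0 in at least 1 library (1 point a library, 7 genes at 0 throughout left out), on an axis that is logarithmic above 0.02 and linear below, ordered by the mean of the 4 libraries. CXCR4 and ACKR3 lie at 11.1 to 65.5 in the polymer X libraries, and the highest value of any other receptor is 1.82, for CCR10.

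The genes around the receptors were taken from 5 further lists and tested with all genes. Of the 11 other ligands, co-receptors and partners, 7 were tested, with 1 called higher and 1 called lower on polymer X. Over all tested genes, 10.7% were called higher and 9.45% lower. The median log2 fold change of the list was 0.27, against -0.06 over all tested genes. ADM, which encodes adrenomedullin, a vasodilator peptide that ACKR3 can take up, rose from an FPKM of 41.7 and 42.3 on TCP to 208 and 215 on polymer X. Its log2 fold change was 2.30 ± 0.05 (SE), with an adjusted p of 1.9e-09 by limma. HMGB1, a chromatin protein that can bind CXCL12 outside the cell, fell from 136 and 128 to 39.5 and 36.6. Its log2 fold change was -1.77 ± 0.06 (SE), with an adjusted p of 1.2e-08 by limma, and the value is uncertain because HMGB1 has processed copies of near-identical sequence. MIF, a cytokine that binds CXCR4 and CD74, was the most abundant of the list at 723 and 620 FPKM on TCP and 1042 and 1011 on polymer X. Its log2 fold change of 0.62 did not reach 1. Its co-receptor CD74 did not pass the filter, with 4 and 6 tags on TCP and 47 and 62 on polymer X. CXCL11, the other chemokine ligand of ACKR3, had 0 tags in both TCP libraries and 14 and 15 on polymer X, an FPKM of 0.220 and 0.232. Its span overlaps that of ART3 on the opposite strand, so these tags may belong to either gene.

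Of 13 genes whose products cleave CXCL12 or sulfate tyrosines of the receptors, 7 were tested, with 4 called higher and 0 called lower. The median log2 fold change was 1.47. The share called higher was 57.1% of the tested genes of this list, against 10.7% over all tested genes. MMP1, interstitial collagenase, rose from 22.6 and 20.02 FPKM to 899 and 888 (log2 fold change 5.33 ± 0.07, SE, adjusted p = 8.8e-11 by limma). MMP13, another collagenase, rose from 1.74 and 1.79 to 20.3 and 16.99, and MMP2, gelatinase A, from 21.2 and 22 to 104 and 105, with log2 fold changes of 2.82 and 2.22. The groups were apart for each of these genes. However, 9689 of the 11964 tested genes had an adjusted p under 0.05 by limma, so nothing is read from that. DPP4, the cell surface peptidase that removes the N-terminal dipeptide of CXCL12, rose from 0.229 and 0.115 to 2.16 and 2.35, a log2 fold change of 1.47 that was 1.00, just under the threshold, under quantile normalization and 3.14 with a pseudocount of 0.1. DPP4 lay under 1 FPKM on TCP and passed the filter through the polymer X libraries alone, so it could not have been called lower. TPST1 and TPST2, the tyrosylprotein sulfotransferases, had log2 fold changes of -0.76 and 0.13 and were not called. The list also holds CPM, which encodes the membrane enzyme carboxypeptidase M. Its log2 fold change was -0.60 and not called, but it was called lower at -1.04 with a pseudocount of 0.1 and at -1.06 under quantile normalization. MMP3, MMP9 and MMP14 stayed under 1 FPKM in every library, and the leukocyte protease genes CTSG and ELANE reached at most 0.394.

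**Figure D4:**
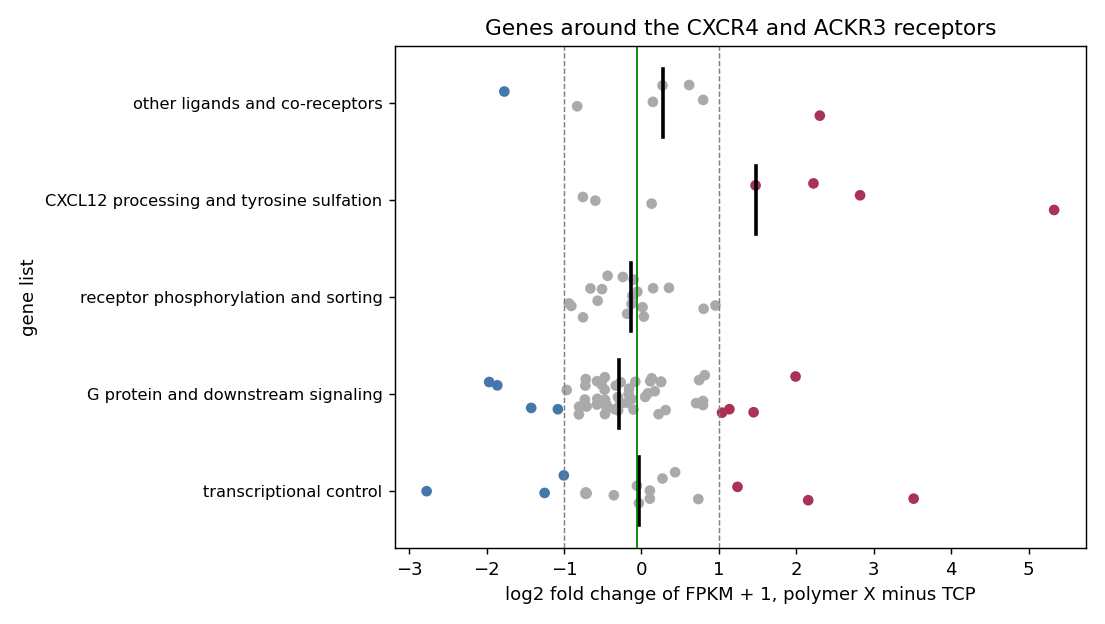
Log2 fold change of FPKM + 1 between polymer X and TCP for each tested gene of 5 lists (points; red called higher, blue called lower, grey not called), with the median of the list as a black bar, the median of all tested genes (-0.06) as a green line and dashed lines at -1 and 1. Of the genes for CXCL12 processing, 4 lie to the right of 1, up to 5.33 for MMP1, and of the genes for receptor sorting none lies outside the dashed lines.

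The genes that phosphorylate, ubiquitinate and sort the receptors after ligand binding were called in neither direction. Of the 20 genes, 19 were tested and 0 were called by limma, with a median log2 fold change of -0.13, although 14 had an unadjusted p under 0.05 and 13 an adjusted p under 0.05. Among all tested genes, 10.7% were called higher and 9.45% lower. An adjusted p under 0.05 by limma was common, at 9689 of the 11964 tested genes, so nothing is read from the 13. The receptor kinase gene GRK2 had an FPKM of 21.3 and 21.3 on TCP and of 21.3 and 21.7 on polymer X. ARRB1 and ARRB2, the arrestins that bind the phosphorylated receptors, had log2 fold changes of 0.96 and 0.15. ARRB1 lay at 2.49 and 2.41 FPKM on TCP and at 5.87 and 5.51 on polymer X, and it was past the threshold at 1.18 with a pseudocount of 0.1 and at 1.07 with transcripts summed. GRK6, at 16.5 and 17.9 against 9.21 and 7.83, had a log2 fold change of -0.94, and of -1.04 without polymer X replicate 1. ITCH, the ubiquitin ligase that sends CXCR4 to lysosomes, lay at 16.0 and 16.1 FPKM on TCP and at 11.6 in both polymer X libraries. RAMP3, a partner of ACKR3, was the gene that did not pass the filter, with 0 tags on TCP and 28 and 8 on polymer X.

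Among the 65 genes of G protein and downstream signaling, 54 were tested, 4 rose and 4 fell. The median log2 fold change was -0.29, and 7.41% of the tested genes of this list were called in each direction. The shares over all tested genes were 10.7% higher and 9.45% lower. VAV3, a guanine nucleotide exchange factor, rose from 0.900 and 0.726 FPKM to 6.42 and 5.97 (log2 fold change 1.99, standard error 0.08, adjusted p = 3.7e-08 from limma). JAK3, a Janus kinase, rose from 0.140 and 0.161 to 1.93 and 2.36, PIK3R5, a regulatory subunit of the G protein-activated PI3 kinase, from 0.012 and 0 to 1.27 and 1.15, and GNAI1, an inhibitory G protein subunit, from 7.27 and 7.53 to 16.6 and 15.9. Their log2 fold changes were 1.45, 1.14 and 1.04. VAV3, JAK3 and PIK3R5 lay under 1 FPKM on TCP and passed the filter through the polymer X libraries alone, so they could not have been called lower. Under quantile normalization JAK3 and PIK3R5 were no longer called, at 0.97 and 0.76, and with a pseudocount of 0.1 their values were 3.16 and 3.63. With transcripts summed, PIK3R5 was at 2.98. Of the genes that fell, 3 are described. DOCK2, an exchange factor for Rac, went from 3.12 and 3.31 FPKM to 0.074 and 0.081 (log2 fold change -1.97, standard error 0.08, adjusted p = 3.5e-08 from limma, and -4.22 with a pseudocount of 0.1). The span of DOCK2 overlaps that of FAM196B on the opposite strand. Whether their exons overlap was not checked, so some of the tags may belong to FAM196B. DOCK2 passed the filter through the TCP libraries alone. PLCB4, a phospholipase C, fell from 33.3 in both TCP libraries to 8.51 and 8.35, and GNG12, a G protein gamma subunit, from 151 and 150 to 57.5 and 53.4. Their log2 fold changes were -1.86 and -1.42. The most abundant inhibitory subunit, GNAI2, had 104 and 107 FPKM on TCP and 99.04 and 100 on polymer X, and JAK2 and STAT3 were not called, with log2 fold changes of -0.30 and 0.25.

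Of 19 genes known to control transcription of the receptors or of CXCL12, 17 were tested, 3 rose and 3 fell. The median log2 fold change was -0.03. In each direction 17.6% of the tested genes of this list were called, against 10.7% higher and 9.45% lower over all tested genes. EGLN3, an oxygen-sensing prolyl hydroxylase, rose from 5.49 and 6.16 FPKM to 73.7 and 80.2, and EPAS1, which encodes HIF-2 alpha, from 9.33 and 9.08 to 43.7 and 45.0. Their log2 fold changes were 3.52 (adjusted p = 9.2e-10 from limma) and 2.15 (adjusted p = 3.0e-09 from limma). ESR1, the estrogen receptor gene, rose from 0.363 and 0.384 to 2.44 and 2.06, a log2 fold change of 1.24 that was 0.78 and no longer called under quantile normalization, 2.31 with a pseudocount of 0.1 and 2.15 with transcripts summed. ESR1 passed the filter through the polymer X libraries alone, so it could not have been called lower. HIF1A had 236 and 241 FPKM on TCP and 154 and 138 on polymer X, and its log2 fold change of -0.71 did not reach the threshold. MYC fell from 19.7 and 20.4 to 1.99 and 2.16 (log2 fold change -2.78, adjusted p = 2.1e-09 from limma), and KLF2, a repressor of migration genes in lymphocytes, from 4.29 and 4.8 to 1.32 and 1.33. NFKB1, a subunit of NF-κB, fell from 21.2 and 22.5 to 10.9 and 9.94, at a log2 fold change of -1.003 that lay at the threshold. It was -0.96 under median scaling, -0.86 under quantile normalization, -0.96 without TCP replicate 2 and -0.94 without polymer X replicate 2, and was not called in these. NRF1 and YY1, for which roles at the CXCR4 promoter are known, had log2 fold changes of -0.72 each and were not called. HIC1, a repressor of ACKR3, did not pass the filter, at 0.264 and 0.325 FPKM on TCP and 0.753 and 0.780 on polymer X.

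CXCR4 is abundant in leukocytes and CXCL12 in fibroblasts, so markers of these and of endothelial cells were read beside the receptors. None of 11 leukocyte markers reached 1 FPKM, 4 of them (CD2, CD3D, CD3E and MS4A1) were at 0 in all libraries, and their summed FPKM was 0.245 to 0.249 on TCP and 0.966 to 1.24 on polymer X. PTPRC, the pan-leukocyte gene, had 1 and 0 tags on TCP and 92 and 106 on polymer X. ITGAM, an integrin gene of the list, had 2 and 2 tags on TCP and 3 and 12 on polymer X. ITGAX, an integrin gene of leukocytes outside this list, had 0.159 and 0.255 FPKM on TCP and 10.2 and 13.1 on polymer X. It was picked above for its likeness to ACKR3, so nothing is read from its pattern here. The 7 endothelial markers summed to 0.616 to 0.641 FPKM on TCP and 0.634 to 0.987 on polymer X, with 0 of them at 0 in all libraries and with markers that went either way. PECAM1 had 0 tags on TCP and 102 and 83 on polymer X, whereas KDR, the highest of the list on TCP, had 106 and 114 tags on TCP and 50 and 26 on polymer X. Of 9 fibroblast markers, 5 were tested and 4 were called higher (LUM, COL3A1, DCN and COL1A2), against 10.7% of all tested genes. The fifth, COL1A1, had 8.21 and 8.48 FPKM on TCP and 3.81 and 3.77 on polymer X and was not called at a log2 fold change of -0.96. LUM, COL3A1 and DCN passed the filter through the polymer X libraries alone, so they could not have been called lower. Markers under 1 FPKM in all libraries were not tested. The summed FPKM of the 9 went from 17.1 to 18.0 on TCP to 76.6 to 86.7 on polymer X. PDGFRB, THY1 and POSTN stayed at or under 0.184 in every library, THY1 with 11 and 17 tags on TCP and 4 and 0 on polymer X and POSTN with 10 and 16 and then 2 and 6, and no fibroblast marker was at 0 in all 4. The part of these markers in the levels of the receptors was not tested. Of 9 carcinoma markers, 6 were tested, with 3 called higher (ERBB2, PAX8 and EPCAM) and 0 called lower. The share called higher was 50% of those tested, against 10.7% over all tested genes. EPCAM passed the filter through the polymer X libraries alone. ERBB2, which overlaps MIEN1 on the opposite strand, had a log2 fold change of 2.13, PAX8 of 1.06 and EPCAM of 1.05, against -0.87 for KRT8, -0.76 for KRT7 and -0.44 for KRT18, which were not called. PAX8 lay at 48.8 and 50.5 FPKM on TCP and at 102 and 108 on polymer X, whereas MUC16, WT1 and KRT19 stayed under 1 in all 4 and EPCAM did so on TCP.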

How the data were processed

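RNA-seq of 4 SKOV3 libraries was analysed (2 of TCP, 2 of polymer X). Per the file headers, the authors counted tags on exons of both strands with HOMER on hg19 and deposited FPKM values for each RefSeq transcript. The submitters' processing notes also name STAR 2.4.0 and DESeq. Low values (2965 to 3265 a library) multiplied by length fell within 0.1 of whole tags, which gave library sizes of 38402000 and 44913000 tags for TCP and 40029000 and 40684000 for polymer X. Between 51.6% and 56.8% of low tag numbers were even. If tags came as mates, counting intervals are too narrow, and intervals and floors (3 tags) cover counting error only.

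The test on log2(FPKM + 1) took genes that reached an FPKM of 1 in 2 or more libraries and used limma 3.58.1 in R 4.3.3 (trend, no replicate block, Benjamini-Hochberg adjustment over 11964 genes). This scale understates changes of low genes. A call needed a log2 fold change of 1 or more in size together with an adjusted p under 0.05. An exact permutation of 2 against 2 libraries cannot pass 0.05, so calls rest on spread shared across genes.

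The members and lists were chosen with earlier results of these data known. Named are the members, the called genes of each list (up to 5 a direction) and the 5 genes nearest each receptor. Any other gene was named after its values were seen, and some genes that meet the rule are not reported here. Promoter sequences came from RefSeq.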

Additional observations from a re-analysis of the deposited data

How the results depend on the processing

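The log2 fold change of CXCR4 was 7.59 with a pseudocount of 0.1, 7.17 with its transcripts summed and 5.54 under quantile normalization, against 5.71. That of ACKR3 was 4.84 with a pseudocount of 0.1 and 3.01 under quantile normalization, against 3.28. Median scaling moved both by less than the replicate SD. With each library left out, the values were 5.65 to 5.76 for CXCR4 and 3.20 to 3.36 for ACKR3. With 2 libraries a group, such a shift cannot exceed the replicate SD, so nothing is read from its size. CXCL12, whose kept transcript was at the floor, was not evaluated under these settings. Without the fold change minimum, 9689 genes were called in place of 2416, and in the lists 45 in place of 8 for downstream signaling, 7 in place of 2 for other ligands, 13 in place of 6 for transcriptional control and 13 in place of 0 for receptor sorting. With genes limited to a mean FPKM of 5 or more, which leaves fewer to test, downstream signaling had 4 calls. Receptor sorting had 2 calls with a pseudocount of 0.1 (ARRB1 and GRK6), 1 with transcripts summed (ARRB1) and 0 to 1 with each library left out (GRK6 without polymer X replicate 1, where the lone library is assumed to vary like the other group). The cause was not tested. All other totals of calls stayed within 1.5 times. By direction, genes called higher went from 1285 to 702 at the mean FPKM of 5 and, in downstream signaling, from 4 to 1. CPM was called lower with a pseudocount of 0.1 and under quantile normalization, CD44 higher under quantile normalization and CD74 higher with transcripts summed. Other genes gained calls under some settings, in downstream signaling CRK (lower) and GNG2, MAPK3, PTK2B and RGS14 (higher), and in transcriptional control VHL (higher). A replicate block gave 2416 calls, as without it, and no list count changed. Libraries that share a number had deviations from their group means that correlated at 0.093 over 11964 genes, and no pairing was assumed. Depth limits CXCL12 and the TCP values of both receptors, which rest on 14 to 34 tags.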
